A study of Homo sapiens with 5 samples.

Results

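The genes described here are 31 genes of the amino acid stress response and of tRNA charging, measured in TF-1 cells, a human erythroleukaemia line that depends on GM-CSF for growth. They were listed by symbol and comprise ATF4 and 12 genes linked to it, 5 enzymes of serine and one-carbon metabolism, and 13 cytosolic aminoacyl-tRNA synthetases. Of these 31, 30 had a probe set assigned to them alone, among 11963 genes with such a probe set on the array. The exception was MARS1, the methionyl-tRNA synthetase, whose 3 probe sets each carried more than 1 symbol and were left out. Each gene is represented by its probe set with the highest mean signal.

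All cells carried a GFP-marked MSCV retroviral construct, were deprived of growth factor overnight and were then stimulated for 6 h. Cells with the empty vector received GM-CSF at 5 ng/mL, Steel factor (SF, the ligand of c-Kit) at 20 ng/mL, or erythropoietin (Epo), for which the labels give no dose. Cells with the construct encoding an SCL mutant defective in DNA binding (mutant SCL; SCL is the transcription factor encoded by TAL1) received SF or Epo. The stated questions were which genes c-Kit regulates, through the comparison of SF with the other cytokines, and which genes SCL regulates, through the comparison of mutant with vector cells. With 1 array for each of the 5 groups there is no replicate check, and no p-value was computed. There was no unstimulated group and no mutant SCL array under GM-CSF, and the labels do not say whether transduced cells were pools or clones. In these bulk samples, fewer cells expressing a gene and less RNA per cell cannot be told apart.

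In the integrated stress response, kinases that sense uncharged tRNA, misfolded protein, double-stranded RNA or lack of haem phosphorylate the initiation factor eIF2. General translation then falls while translation of the ATF4 mRNA rises, and ATF4, pairing with C/EBP factors, activates genes for amino acid synthesis, uptake and tRNA charging. The haem-sensing kinase makes this pathway a regular part of erythroid biology, since it matches globin synthesis to haem supply. ATF4 is controlled to a large extent at translation, so its mRNA signal does not report its protein.

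The DNA through which ATF4 and C/EBP factors act is shown first, because it is the feature that ties many of these genes to one another. RefSeq promoter windows (GRCh38.p14), from 250 bases before to 50 bases after each start, were found for 26 of the 31 genes. No entry was found for LARS1, PSPH, SHMT2, SLC7A11 and YARS1. The C/EBP-ATF response element was searched as TGATGNAA on both strands, so that an antisense match reads TTNCATCA on the strand of the gene. It was present in 12 of the 26 genes (46.2%), and in 3.43% of 9563 genes on the array that had a promoter entry. Counted by window, since a gene can have several, 12 of 42 windows (28.6%) held it, against 3.62% of 35116 windows of the same length over all genes. Several of these genes are textbook ATF4 targets, so the share is not independent of how the list was written.

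The windows around the match are printed for 7 genes whose signals are described below, on the strand of the gene and with the element in capitals.
HERPUD1: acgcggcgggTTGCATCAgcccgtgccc
CEBPG: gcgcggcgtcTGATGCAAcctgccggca
SLC3A2: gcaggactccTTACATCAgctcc
IARS1: tttcagcgcgTTGCATCAcctccgtgcg
TARS1: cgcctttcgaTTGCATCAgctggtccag
CARS1: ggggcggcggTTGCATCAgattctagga
GARS1: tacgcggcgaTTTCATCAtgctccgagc
The windows lie at chr16:56931956-56931983 (HERPUD1, plus strand), chr19:33374061-33374088 (CEBPG, plus), chr11:62881726-62881748 (SLC3A2, plus), chr9:92293693-92293720 (IARS1, minus), chr5:33440957-33440984 (TARS1, plus), chr11:3057408-3057435 (CARS1, minus) and chr7:30594835-30594862 (GARS1, plus). The remaining matches were in ATF3, AARS1, MARS1, NARS1 and ASNS. The variable base gave the form TGATGCAA in 8 genes (AARS1, CARS1, CEBPG, HERPUD1, IARS1, MARS1, NARS1 and TARS1) and TGATGAAA in ASNS and GARS1, while ATF3 held TGATGGAA and SLC3A2 held TGATGTAA.

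ASNS encodes asparagine synthetase, and its promoter is a well-studied example of this kind. Its 120 bases before the start, at chr7:97872409-97872528 on the minus strand, are shown with the C/EBP-ATF element and the downstream GTTACA element in capitals.
ASNS: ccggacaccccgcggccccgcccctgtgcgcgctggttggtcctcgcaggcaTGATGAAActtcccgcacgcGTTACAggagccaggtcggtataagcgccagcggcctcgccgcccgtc
The first element begins at position -68 and GTTACA at position -48 relative to the start. GTTACA alone, searched on both strands, is a common sequence: it was found in ASNS and TRIB3, 2 of 26 genes (7.69%), and in 7.05% of the array genes with an entry.

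Most matches lay close to the start. Of the 12 matches, 8 (66.7%) began within 50 bases of it, compared with 28.9% of 1306 matches over all windows. The match began at -33 in GARS1, -13 in IARS1, -4 in MARS1, -2 in CARS1 and 3 in TARS1. It lay farthest upstream in ATF3, at -191, AARS1, at -187, and HERPUD1, at -176.

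**Figure D1:**
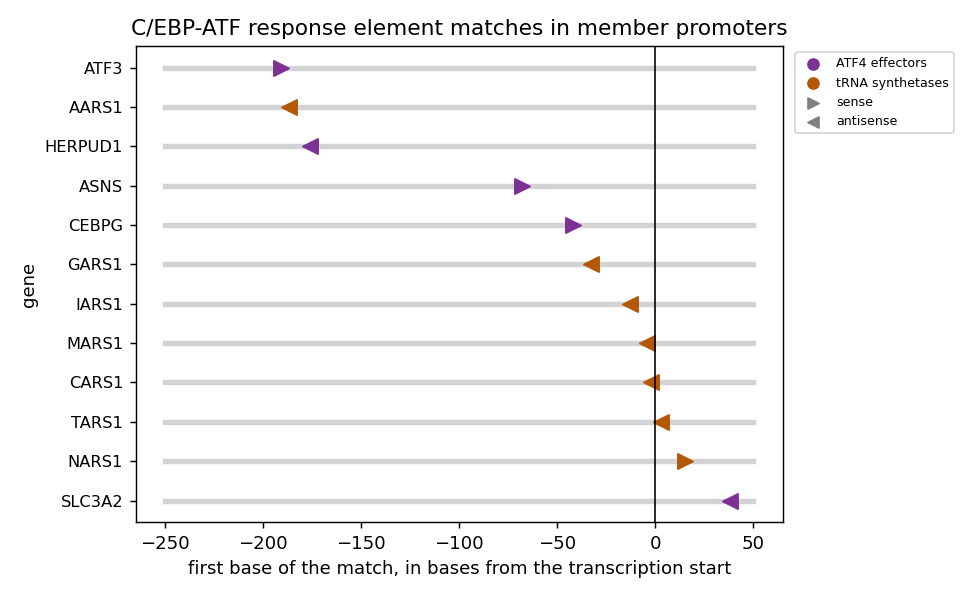
Position of each C/EBP-ATF response element match in the promoter windows of the 12 genes that hold one; the x axis gives the first base of the match in bases from the start, grey bars the window searched, and triangles point right for a match on the gene's strand and left for one on the other strand. Matches of 8 genes lie within 50 bases of the start, and those of ATF3, AARS1 and HERPUD1 lie farthest upstream, at -191, -187 and -176.

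Other elements were rarer or less distinctive. The ER stress element, CCAAT and CCACG separated by 9 bases, was found in XBP1, 1 of 26 genes (3.85%), and in 0.146% of array genes. XBP1 encodes the transcription factor of the IRE1 branch of the unfolded protein response, and its match lies at chr22:28800598-28800626 on the minus strand, with the whole element in capitals.
XBP1: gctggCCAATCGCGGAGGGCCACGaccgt
The cAMP response element TGACGTCA matched 0 of 26 genes and 3.59% of array genes. The antioxidant response element TGACNNNGC, through which NRF2 acts, matched 10 of 26 genes (38.5%) and 19.4% of array genes. A match is a description of these letters in this window and not evidence of binding.

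On the arrays, the deposited log2 signals ran from 2.08 to 13.77. A floor was set at 4.45, the 40th percentile of all values. The vector GM-CSF array had the highest 28S ribosomal RNA signal, 7.82, against 5.80 for vector Epo, and the spike-in hybridization controls read 10.53 and 9.58 on the same arrays. The beta-actin 3′ to 5′ signal difference, a measure of RNA integrity, ran from 1.89 (vector SF) to 3.33 (mutant SCL SF). Bright genes were higher as a group on the SF and Epo arrays: in the brightest of 10 expression bins the median difference from the vector GM-CSF array was 0.24 for SF and 0.32 for Epo, while over all genes both medians were 0.00. All 10 markers of TF-1 erythroid progenitors on the array exceeded the floor on every array. Among markers of other cells, 5 of 7 for other blood cells and 3 of 6 for epithelium and stroma did so too, while CD14, EPCAM, CDH1 and KRT19 were below it on every array.

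Of the 30 genes, 27 were above the floor on all 5 arrays. ATF3, a stress-induced transcription factor, lay between 3.69 and 3.86 across the arrays, VLDLR, a lipoprotein receptor, between 2.63 and 2.89, and PSPH, the last enzyme of serine synthesis, between 3.24 and 3.75. These 3 genes were below the floor on every array and entered no comparison. A gene was called higher or lower between arrays when its signals differed by at least 1.5-fold, a log2 difference of 0.585. Without replicates, the spread of a single difference was estimated over all genes as 0.13 to 0.24 log2 depending on brightness, with a median of 0.18. It rests on how far the effect of mutant SCL differed between SF and Epo, and so includes any real difference of that kind.

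In the signals as deposited, the 27 measured genes tended to be highest in vector cells under Epo and lowest under GM-CSF. The vector Epo array held the single highest value for 15 of 27 genes (55.6%), compared with 26.9% of the 7918 genes above the floor on every array. The vector GM-CSF array held the single lowest value for 12 of 27 (44.4%), compared with 30.9%. The order GM-CSF, then SF, then Epo held in 16 of 27 genes (59.3%), against 28.7% of all genes, and in 8 of 12 synthetases, 7 of 11 ATF4-linked genes and 1 of 4 serine and one-carbon enzymes. After quantile normalization the vector Epo array was the highest for 9 of 27 genes (33.3%) and 21.6% of all genes, so the excess depends in part on scaling.

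**Figure D2:**
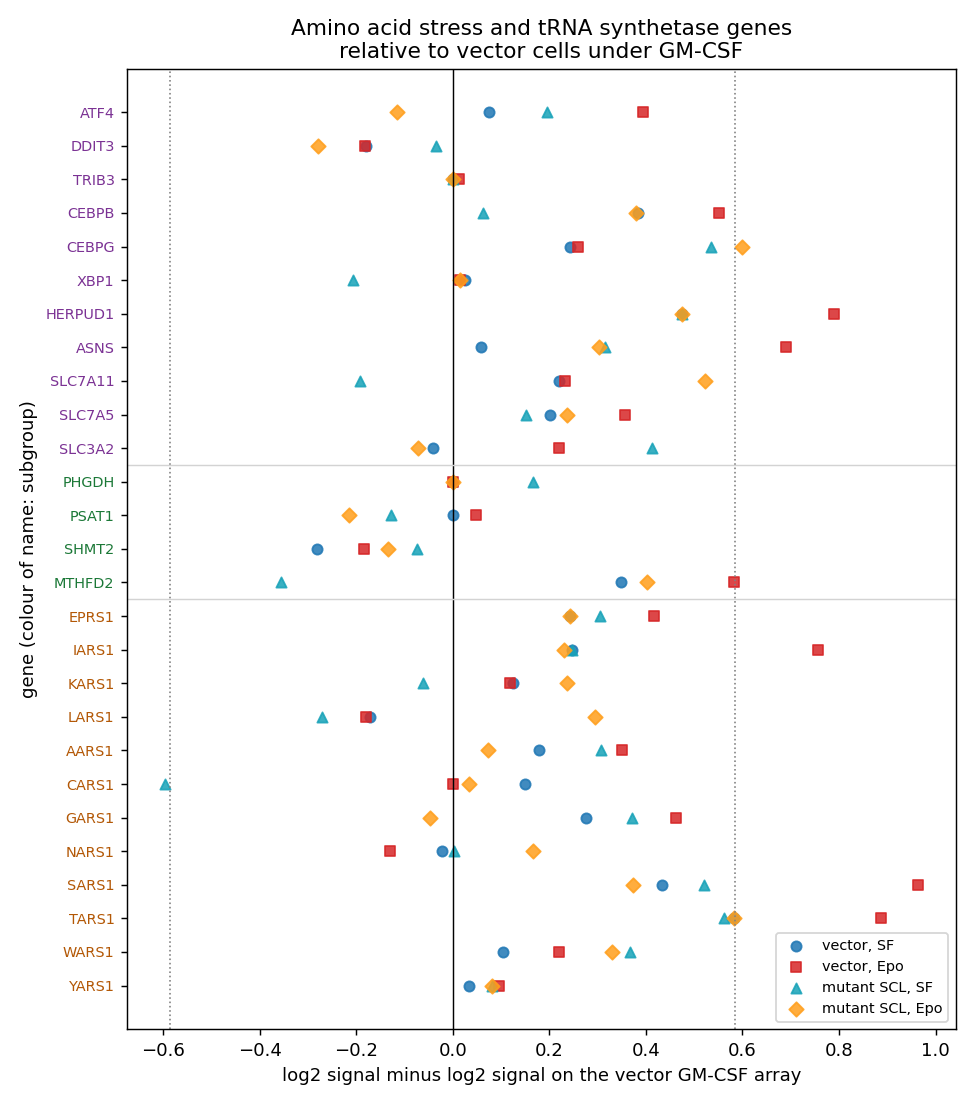
Log2 signal of the 27 measured genes on each of the other 4 arrays minus that on the vector GM-CSF array (x axis, log2), 1 gene per row, coloured by subgroup; symbols mark the array and dotted lines a 1.5-fold difference. Red squares (vector Epo) of SARS1, TARS1, HERPUD1, IARS1 and ASNS lie beyond the upper line, and the triangle of mutant SCL cells under SF lies beyond the lower line for CARS1.

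The transcription factors of the response were measured at steady levels or with modest differences. ATF4 itself had log2 signals of 9.59 (GM-CSF), 9.67 (SF) and 9.99 (Epo) in vector cells, and of 9.79 (SF) and 9.48 (Epo) in mutant SCL cells. The 5 values span 0.51, with a spread of 0.24 for a single difference, and the vector Epo array was the highest and the mutant Epo array the lowest. CEBPB, a C/EBP partner of ATF4, read 7.10, 7.48 and 7.65 in vector cells in the same order, and 7.16 and 7.48 in mutant cells. Its vector Epo value exceeded the GM-CSF value by 0.55, short of the 1.5-fold rule. CEBPG, another C/EBP factor that dimerizes with ATF4, was the lowest under GM-CSF (4.89), similar under SF and Epo in vector cells (5.13 and 5.14), and highest in mutant cells (5.42 and 5.48).

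DDIT3, which encodes the pro-apoptotic factor CHOP, differed in the other direction by small amounts. It read 6.12 under GM-CSF, 5.94 under both SF and Epo, and 6.08 and 5.84 in mutant cells. TRIB3, a pseudokinase that restrains ATF4, lay between 7.28 and 7.30 on all arrays, with the same value on 4 of them. Such ties are common in the deposited signals. At least 2 arrays shared a value in 10 of the 27 measured genes (37.0%) and in 51.1% of the 7918 genes above the floor on every array. Their origin was not tested, so equal values cannot be read as steady expression. XBP1 was between 5.57 and 5.59 in vector cells and read 5.36 and 5.58 in mutant cells under SF and Epo. DDIT3, TRIB3 and XBP1 met the 1.5-fold rule in none of the 6 comparisons.

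HERPUD1 encodes an ER membrane protein that helps to degrade misfolded proteins. Its vector cell signals were 6.14 (GM-CSF), 6.61 (SF) and 6.93 (Epo), and both mutant arrays read 6.61. GM-CSF was thus the lowest and vector Epo the highest, with equal values on the other 3 arrays. The difference of Epo from GM-CSF was 0.79, or 1.73-fold, against a spread of 0.21.

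ASNS had the same lowest and highest arrays, but its values were spaced differently. Vector cells read 5.64 (GM-CSF), 5.70 (SF) and 6.33 (Epo), and mutant cells read 5.96 (SF) and 5.94 (Epo). The GM-CSF and SF values differed by less than the spread of 0.18, vector Epo stood above all other arrays, and the mutant values lay between. In vector cells the Epo signal of ASNS was 1.61-fold that under GM-CSF and 1.55-fold that under SF. It has a single probe set, as do HERPUD1, SARS1, TARS1, IARS1 and MTHFD2.

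The transporters of the group were SLC7A5 and SLC3A2, which form a heterodimer that exchanges large neutral amino acids, and SLC7A11, which pairs with SLC3A2 to import cystine. SLC7A5 read 8.09 (GM-CSF), 8.29 (SF) and 8.44 (Epo) in vector cells, and 8.24 and 8.33 in mutant cells. SLC3A2 read 7.30, 7.26 and 7.52 in vector cells, with the highest value in mutant cells under SF (7.72) and the lowest in mutant cells under Epo (7.23). SLC7A11 had the reverse order in mutant cells, 5.79 under SF and 6.50 under Epo, on either side of its vector values of 5.98, 6.20 and 6.21. The other probe sets of SLC7A11 were below the floor on every array, so its values rest on 1 probe set.

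**Figure D3:**
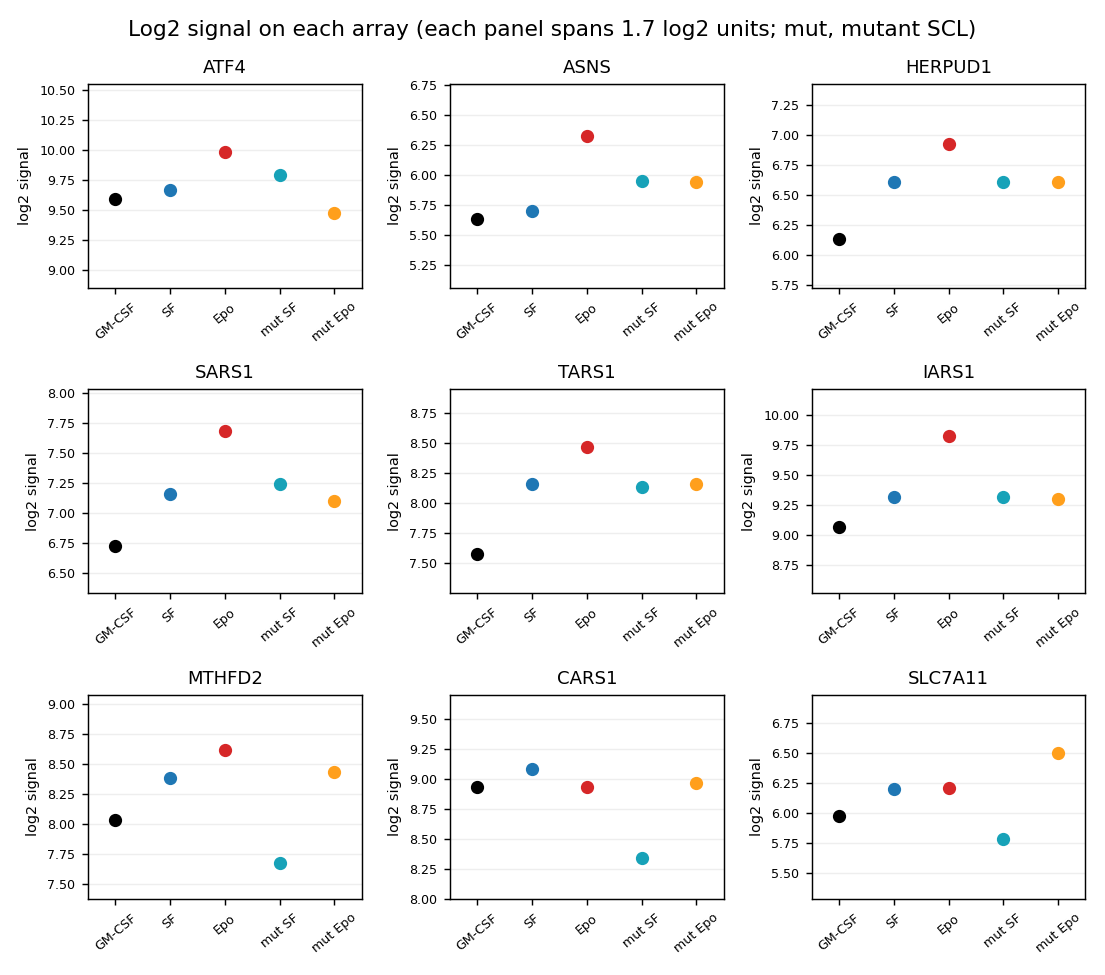
Log2 signal (y axis) of 9 genes on each of the 5 arrays (x axis), 1 point per array with no error bar because each group had 1 array; every panel spans the same 1.7 log2 units. ASNS, HERPUD1, SARS1, TARS1 and IARS1 peak on the vector Epo array, and MTHFD2 and CARS1 are lowest in mutant SCL cells under SF.

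The signals of the measured serine synthesis enzymes, PHGDH and PSAT1, differed between cytokines by less than their spread in vector cells. PHGDH, which commits glucose carbon to serine, read 6.15 on all arrays but mutant SF (6.32). PSAT1, the next enzyme, read 5.27, 5.27 and 5.31 in vector cells and 5.14 and 5.05 in mutant cells. The mitochondrial enzymes that follow behaved differently from each other. MTHFD2, which oxidizes one-carbon units on folate, read 8.03 (GM-CSF), 8.38 (SF) and 8.61 (Epo) in vector cells, and 7.68 (SF) and 8.43 (Epo) in mutant cells. Its mutant SF value was the lowest of the 5, and its difference of 0.58 between Epo and GM-CSF fell just short of the 1.5-fold rule. SHMT2, which produces those one-carbon units from serine, was highest under GM-CSF (8.85), with 8.57 and 8.67 under SF and Epo and 8.78 and 8.72 in mutant cells. The probe sets of SHMT2 disagreed: a dimmer one read 4.65 under GM-CSF and 5.69 under Epo, a difference of 1.05 in the other direction.

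The synthetases attach amino acids to their tRNAs, and 4 of the 12 measured, EPRS1, IARS1, KARS1 and LARS1, belong to the multi-synthetase complex. SARS1, the seryl-tRNA synthetase, had the widest difference between cytokines: 6.72 (GM-CSF), 7.16 (SF) and 7.69 (Epo) in vector cells, then 7.24 (SF) and 7.10 (Epo) in mutant cells. Epo exceeded GM-CSF by 0.96, or 1.95-fold, with a spread of 0.20. TARS1, for threonine, read 7.58, 8.16 and 8.47 in vector cells and 8.14 and 8.16 in mutant cells. IARS1, for isoleucine, read 9.07, 9.31 and 9.82 in vector cells and 9.31 and 9.30 in mutant cells. In both, vector Epo was the highest array and GM-CSF the lowest, and the remaining 3 arrays lay close together.

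GARS1 (glycine) read 9.29, 9.57 and 9.75 in vector cells and 9.66 and 9.25 in mutant cells, so that its highest and lowest values were both under Epo. AARS1 (alanine) read 7.76, 7.94 and 8.11, then 8.07 and 7.84, with its lowest value under GM-CSF. EPRS1, which charges both glutamate and proline, read 8.37, 8.61 and 8.79, then 8.68 and 8.61. A dimmer EPRS1 probe set read 7.65 under GM-CSF and 8.31 under Epo, a difference of 0.65, while the dimmest one, near the floor, read 4.78 and 4.62.

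CARS1 (cysteine) read 8.93, 9.08 and 8.93 in vector cells and 8.97 in mutant cells under Epo, but 8.34 in mutant cells under SF. Its other probe set read 6.59 on 4 arrays and 6.53 under Epo, and did not share the low value. LARS1 (leucine) was highest in mutant cells under Epo, at 7.95, compared with 7.66, 7.48 and 7.48 in vector cells and 7.39 in mutant cells under SF. NARS1 (asparagine) was also highest there, at 9.82, against 9.65, 9.63 and 9.52 in vector cells and 9.65 in mutant cells under SF.

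The other synthetases differed little. KARS1 (lysine) lay between 10.46 and 10.76, WARS1 (tryptophan) between 9.16 and 9.52, and YARS1 (tyrosine) between 9.09 and 9.19. A second KARS1 probe set, however, read 8.06 (GM-CSF), 8.68 (SF) and 8.78 (Epo) in vector cells, differences of 0.61 and 0.72 from GM-CSF where the brighter one gave 0.12 for each.

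SF compared with GM-CSF in vector cells called 0 of the 27 genes in either direction, whereas 6.9% of 8553 compared genes were called higher and 1.29% lower, and 0.596% differed by 2-fold or more. The nearest was TARS1, at 0.58 (just under the rule), followed by HERPUD1 (0.47), SARS1 (0.43) and CEBPB (0.38). SHMT2 had the most negative difference, -0.28, but its dimmest probe set gave 0.64, past the rule in the other direction. Median differences were 0.07 for the 11 ATF4-linked genes, 0.00 for the 4 serine and one-carbon enzymes and 0.16 for the 12 synthetases, beside 0.00 over all genes. The synthetase median was -0.07 when each gene was set against the median of genes of like brightness, and was -0.04 after quantile or cyclic loess normalization.

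Epo compared with GM-CSF in vector cells called 5 of 27 genes higher (18.5%) and 0 lower, beside 13.2% of 8581 genes higher and 2.45% lower. At 2-fold, 0 of the 27 and 3.58% of all genes were called. The 5 genes were SARS1 (0.96), TARS1 (0.89, 1.85-fold), HERPUD1 (0.79), IARS1 (0.76, 1.69-fold) and ASNS (0.69). Just below the rule were MTHFD2 (0.58), CEBPB (0.55) and GARS1 (0.46). The lowest differences were those of SHMT2, DDIT3 and LARS1, each -0.18. Median differences were 0.26 for ATF4-linked genes, 0.02 for serine and one-carbon enzymes and 0.29 for synthetases, and 21 of 27 genes had a difference above 0, beside 3891 of 8581 over all genes. After quantile normalization 15 of the 27 did, beside 3708 of 8533 over all genes.

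Relative to genes of like brightness, the differences of ASNS (0.70), SARS1 (0.74) and HERPUD1 (0.74) stayed above the rule, while those of TARS1 (0.57) and IARS1 (0.44) did not. The synthetase median became -0.03 on this scale and -0.03 after quantile normalization, and 0.03 after cyclic loess normalization. Within the synthetases, the median was 0.27 for the 4 members of the multi-synthetase complex and 0.29 for the 8 outside it. The 28S signal differed by -2.02 and the hybridization controls by -0.95 between these arrays, and their part in the differences was not tested. When the mutant SCL Epo array took the place of the vector Epo array, none of these 5 genes met the rule: the differences were 0.37 for SARS1, 0.58 for TARS1, 0.48 for HERPUD1, 0.23 for IARS1 and 0.30 for ASNS.

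**Figure D4:**
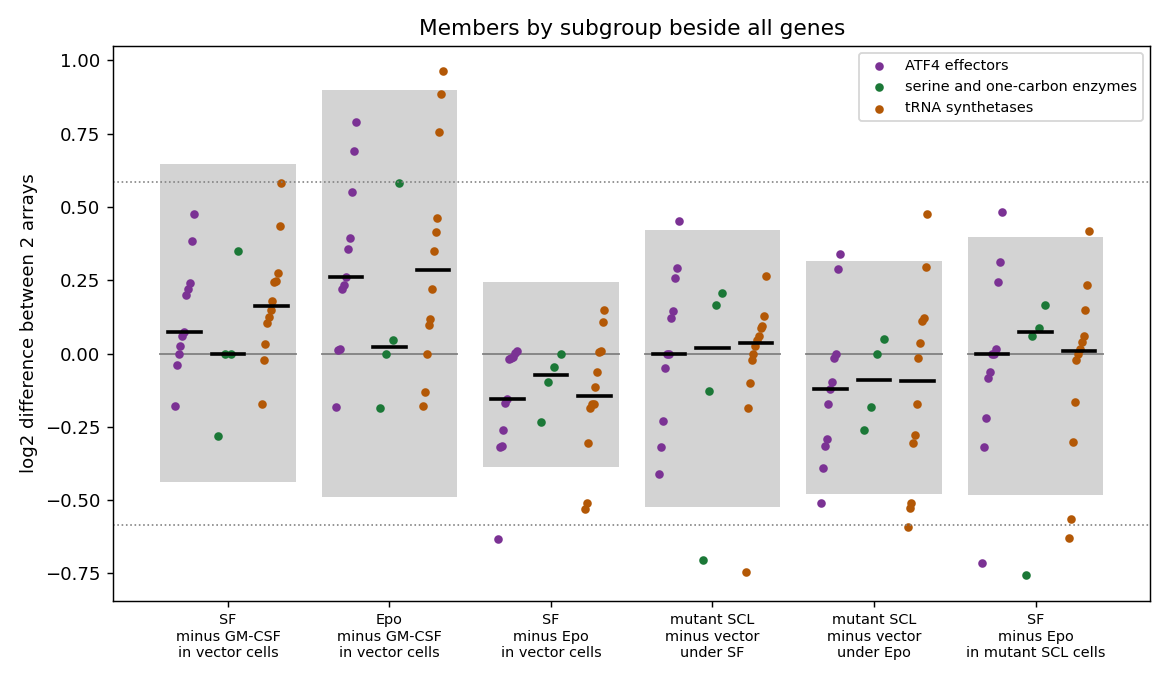
Log2 difference (y axis) of each measured gene in the 6 comparisons, by subgroup; black bars are subgroup medians, grey bands the 5th to 95th percentile of all compared genes, and dotted lines 1.5-fold. Most genes lie inside the bands; in Epo minus GM-CSF the synthetase median is 0.29, but it is -0.03 after quantile normalization.

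SF compared with Epo in vector cells called 1 of 27 genes, ASNS, lower under SF (-0.63), and 0 higher. That is 3.7% of the genes, beside 1.15% of 8312 genes lower and 0.349% higher, with 0.0361% at 2-fold. SARS1 (-0.53) and IARS1 (-0.51) came next. Of the 27 genes, 20 had a lower signal under SF than under Epo and 6 a higher one, with a median of -0.11, beside 4036 lower and 3173 higher of all genes. After quantile normalization the counts were 16 and 11 and the median -0.04, beside 3991 lower and 4382 higher of all genes. Medians were -0.16 for ATF4-linked genes, -0.07 for serine and one-carbon enzymes and -0.14 for synthetases. This comparison shares the vector Epo array with the preceding one, and the values are not independent of it. Between the SF and Epo arrays the 28S signal differed by 0.75, 18S by 0.81 and the beta-actin 3′ to 5′ difference by -0.85, and their part was not tested.

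Under SF, mutant SCL cells had lower signals than vector cells for 2 of 27 genes (7.41%), beside 3.68% of 8450 genes lower. They were CARS1 (-0.75, 1.68-fold) and MTHFD2 (-0.70, 1.63-fold). No gene was called higher, beside 1.42% of all genes, and 0.355% of all genes differed by 2-fold. The CARS1 call rests on 1 of its 2 probe sets, and the mean of both gave -0.37. The largest positive differences were those of SLC3A2 (0.45), CEBPG (0.29), WARS1 (0.26) and ASNS (0.26). Subgroup medians were 0.00 for ATF4-linked genes, 0.02 for serine and one-carbon enzymes and 0.04 for synthetases. Between these arrays the beta-actin 3′ to 5′ difference was larger by 1.44 and the hybridization controls higher by 0.55 in mutant cells, and their part in the calls was not tested.

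Under Epo, mutant SCL cells had a lower SARS1 signal than vector cells (-0.59, 1.51-fold), 1 of 27 genes (3.7%) beside 2.78% of 8359 genes lower. No gene was called higher, beside 0.694% of all genes, and 0.371% of all genes differed by 2-fold. IARS1 (-0.53), ATF4 (-0.51), GARS1 (-0.51) and ASNS (-0.39) were next lowest, and LARS1 (0.47), CEBPG (0.34) and NARS1 (0.30) were highest. Of the 27, 17 were lower and 8 higher in mutant cells, beside 3879 lower and 3470 higher of all genes. After quantile normalization 14 were lower and 13 higher, beside 3904 lower and 4509 higher of all genes. Medians were -0.12 for ATF4-linked genes, -0.09 for serine and one-carbon enzymes and -0.09 for synthetases. The synthetase median was 0.02 relative to genes of like brightness and 0.04 after quantile normalization. The SARS1 difference fell short of the rule after quantile (-0.49) and cyclic loess normalization (-0.56), but met it after median centring (-0.62). The vector Epo array serves here too, as the comparator, and 28S differed by 0.89.

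The mutant SCL differences of many genes had different signs under the 2 cytokines. Of 27 genes, 5 were lower and 4 higher in mutant cells under both, 13 had opposite signs and 5 were unchanged to 6 decimals under one of them. Over 8272 genes, 2072 were lower under both, 1951 higher under both, 2390 opposite and 1859 unchanged under at least 1 of them. CEBPG was higher in mutant cells under both cytokines, by 0.29 and 0.34, against a spread of 0.16. MTHFD2 was lower under both, by -0.70 and -0.18, the second within its spread of 0.23. CARS1 had a difference of -0.75 under SF and 0.03 under Epo.

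**Figure D5:**
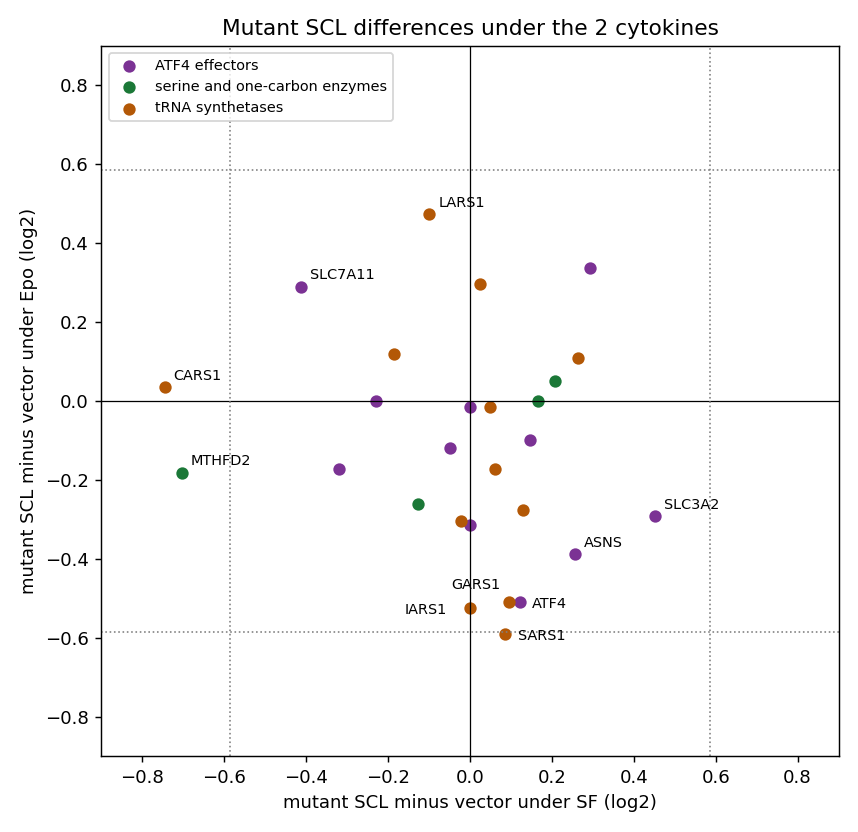
Mutant SCL minus vector log2 difference under SF (x axis) and under Epo (y axis), 1 point per measured gene, coloured by subgroup, with dotted lines at 1.5-fold. CARS1 and MTHFD2 lie beyond the line under SF, and SARS1 lies beyond it under Epo; no gene is beyond the line under both.

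SF compared with Epo within mutant SCL cells called 3 of 27 genes lower under SF (11.1%), beside 2.8% of 8472 genes. They were MTHFD2 (-0.76, 1.69-fold), SLC7A11 (-0.72, 1.64-fold) and CARS1 (-0.63, 1.55-fold). CARS1 did not meet the rule after quantile (-0.53) or cyclic loess normalization (-0.58), relative to genes of like brightness (-0.58) or on its second probe set (0.00). No gene was called higher, beside 0.909% of all genes, and 0.224% of all genes differed by 2-fold. All 3 involve the mutant SF array, on which these genes were the lowest of the 5 arrays, and the hybridization controls differed by 0.79. SLC3A2 (0.48) and GARS1 (0.42) were higher under SF, short of the rule. Medians were 0.00 for ATF4-linked genes, 0.07 for serine and one-carbon enzymes and 0.01 for synthetases. On the probe set used for each gene, no member reached 2-fold in any of the 6 comparisons. A dimmer SHMT2 probe set did, at 1.05 for Epo against GM-CSF in vector cells.

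Genes with and without the C/EBP-ATF element were compared in the same way. For Epo against GM-CSF, 4 of the 10 measured genes with the element were called higher, with a median of 0.41. Without it, 1 of 13 was called higher, with a median of 0.22. The calls with the element were HERPUD1, ASNS, IARS1 and TARS1, and the call without it was SARS1. IARS1 and TARS1 fell short of the rule after quantile normalization (0.43 and 0.53) and relative to genes of like brightness (0.44 and 0.57). HERPUD1, ASNS and SARS1 met it on both scales. Whether the contrast between genes with and without the element holds on these scales was not tested. Over all genes with a promoter entry, 29 of 213 with the element were called higher and 956 of 6779 without it, and both medians were 0.00. The mutant SCL difference under Epo, which shares the vector Epo array with that comparison, had a median of -0.30 for the 10 genes and -0.12 for the 13, beside -0.01 and 0.00 over all genes with and without the element. Under SF it was 0.06 for the 10 and 0.00 for the 13. SARS1 had no match in its windows.

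The rest of the pathway was taken from lists of its other genes, and those called are named. Of 11 compared genes for eIF2 kinases, eIF2 and its exchange factor eIF2B, 2 were higher under SF than GM-CSF, with a median of 0.41, and 6 were higher under Epo, with a median of 0.69. The shares of all genes called higher were 6.9% and 13.2%, and relative to genes of like brightness the medians were 0.17 and 0.39. The eIF2 subunits EIF2S2 (0.83) and EIF2S1 (0.70) and the eIF2B subunits EIF2B3 (0.90), EIF2B2 (0.79) and EIF2B4 (0.69) were among those higher under Epo. Dimmer probe sets of EIF2S2 and EIF2S1 gave smaller differences, 0.26 and 0.05 for the brighter of these. The kinase EIF2AK2, which binds double-stranded RNA, was higher by 1.40 under SF and 1.95 under Epo on its brightest probe set but had differences of -0.37 and -0.61 on another, and the brightest one was lower in mutant than vector cells under Epo by -0.81. EIF2S3 was higher under SF than GM-CSF by 0.73 and lower in mutant than vector cells under SF, by -0.85.

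Of 19 other ATF4 target genes, 2 were higher and 1 lower under SF than GM-CSF, and 4 were higher and 1 lower under Epo, with medians of -0.03 and 0.00. Of all genes, 6.9% were higher and 1.29% lower under SF, and 13.2% higher and 2.45% lower under Epo. Relative to genes of like brightness the medians of the list were -0.06 and 0.01. SLC38A2, a neutral amino acid transporter induced by amino acid shortage, read 7.41 (GM-CSF), 8.30 (SF) and 8.91 (Epo) in vector cells, and a second probe set gave an Epo difference of 1.35. Its SF signal was lower than its Epo signal by -0.60. XPOT, which exports tRNA from the nucleus, was higher by 0.77 and 1.15. ALDH18A1, an enzyme of proline synthesis, was higher under Epo by 1.15, lower under SF than Epo by -0.70 and lower in mutant than vector cells under Epo by -0.84. GADD45A, a growth arrest gene, was higher under Epo by 0.62. CHAC1, which degrades glutathione, was lower under SF (-0.69), and ATF5, a factor translated in the manner of ATF4, was lower under Epo (-0.82). In mutant cells XPOT was lower under both cytokines (-0.81 under SF and -0.62 under Epo) and ATF5 was higher under Epo (0.80). A dimmer ATF5 probe set above the floor gave 0.10 there, short of the rule. Of all genes, 3.68% were called lower in mutant than vector cells under SF, and 2.78% lower and 0.694% higher under Epo.

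In the ER, 4 of 17 unfolded protein response genes were higher under Epo than GM-CSF and 1 was lower, with a median of 0.01. The median was -0.02 relative to genes of like brightness. Of all genes, 13.2% were higher and 2.45% lower under Epo, and 6.9% were higher under SF. These shares also stand beside the counts of the lists that follow. HSPA5, the main ER chaperone, read 7.65 (GM-CSF), 8.36 (SF) and 8.65 (Epo) in vector cells. EDEM1 (0.79) and DNAJB9 (0.75), which act in ER-associated degradation, and the disulfide isomerase PDIA3 (0.72) were also higher under Epo, and the chaperone CALR was lower (-0.82). Under SF, HSPA5 (0.71) and PDIA3 (0.61) were higher than under GM-CSF. The brightest CALR probe set was lower under SF (-0.65), but the others gave 0.59, itself past the rule, and 0.13, so CALR has no settled direction there. Of 5 other cytosolic synthetases and complex scaffolds compared, RARS1 (0.80) and AIMP1 (0.61) were higher under Epo, and AIMP1 (0.61) also under SF. Of 9 mitochondrial synthetases, IARS2 (0.98) and HARS2 (0.94) were, and under SF so were IARS2 (0.71), HARS2 (0.61) and NARS2 (0.61). Of 10 other serine, glycine and folate enzymes, 4 were higher under Epo: DLD (1.25), the dehydrogenase of the glycine cleavage system, the purine synthesis enzymes GART (0.81) and ATIC (0.80), and methionine synthase MTR (0.79). Of these, DLD (0.87), GART (0.70) and MTR (0.60) were also higher under SF than GM-CSF, and DLD was lower in mutant than vector cells under Epo (-0.66). For Epo against GM-CSF, further probe sets that exceeded the floor differed by -0.05 and 0.17 (GART), -0.43 and 0.00 (CALR) and -0.42 (ATF5), short of the rule. For SF against GM-CSF, further probe sets of GART (0.05 and 0.18) and AIMP1 (0.43) also fell short. SF compared with Epo in mutant cells called 0 genes of these lists.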

How the data were processed

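One log2 signal per probe set and array was used as deposited by the authors. The unit was read from the values, and the summary method, normalization and software are not given in the sources used here. The array held 22283 probe sets, of which 68 were controls. Platform annotation gave 1 symbol to 19071 probe sets and several to 1043, and only the former were used. Values under the floor of 4.45 were set to it, and a gene was compared when at least 1 of the 2 arrays exceeded it. A difference is log2 signal minus log2 signal, and a call needs 1.5-fold, with 2-fold as an alternative. The spread came from 10 expression bins. Scripts ran in Python 3.11.15 with pandas 2.3.3, and alternative normalizations in limma 3.58.1 under R 4.3.3. The calling rule was tested on simulated data. With 1 array per group, the number of arrays limits the precision and no test was run. All genes of the list are described, and genes of other lists are named when called. The members, lists and rules were chosen with earlier results of these data known. Alternatives were quantile, cyclic loess and median normalization, the floor, the probe set rule and the fold. Subtracting the median of genes of like brightness and exchanging the Epo arrays were added after the data were seen.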

Additional observations from a re-analysis of the deposited data

Results flagged for a closer look

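For 3 of the 27 measured genes the mutant SCL difference had opposite signs under SF and Epo, each beyond the estimated spread of a single difference. With 1 array per group the difference between cytokines was not tested. The share of all genes meeting this rule was not counted, so the 3 genes cannot be said to stand out. Opposite signs of any size were found in 13 of the 27 and in 2390 of 8272 genes. The spread itself comes from this contrast over all genes, so some genes will exceed it. ASNS was higher in mutant than vector cells under SF by 0.26 and lower under Epo by -0.39, so that the SF difference minus the Epo difference was 0.65. SLC3A2 was higher under SF by 0.45 and lower under Epo by -0.29, a contrast of 0.74. SLC7A11, its partner in the cystine transporter, had the reverse signs, -0.41 under SF and 0.29 under Epo, a contrast of -0.70.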

How the results depend on the processing

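No paired analysis was possible because each group had 1 array and the labels give no replicate numbers. Of 55 alternative counts of called genes, 20 moved by more than 1.5 times or to or from 0. Of the subgroup medians, 11 moved by at least the median spread of a single difference (0.18) while 130 did not. No called gene reversed its direction in any alternative. Some subgroup medians changed sign, such as the synthetase median for SF against GM-CSF, which was 0.16 as deposited. Under quantile normalization the count was 3 for Epo against GM-CSF (HERPUD1, ASNS and SARS1) and 0 for mutant SCL under Epo, which was also 0 under cyclic loess normalization. Subtracting the median of genes of like brightness gave 3 and 0 for the same comparisons. Median centring called 1 gene (TARS1) for SF against GM-CSF. The 2-fold rule called 0 in each comparison. With the mutant SCL Epo array in place of the vector Epo array, no gene first called for Epo against GM-CSF met the rule. In that setting 1 gene not called before (CEBPG) did. The mean of probe sets left 1 gene (MTHFD2) lower in mutant cells under SF and 1 (MTHFD2) lower under SF than Epo in mutant cells. Second probe sets, above the floor for 5 genes, called KARS1 for SF against GM-CSF (1 gene), EPRS1 and KARS1 for Epo against GM-CSF (2 genes) and 0 in the other comparisons. The synthetase median for SF against GM-CSF was -0.042 under quantile and -0.042 under loess normalization and -0.073 relative to genes of like brightness. For Epo against GM-CSF it was -0.028, 0.028 and -0.031 under these, and 0.53 over second probe sets of 4 genes. Among the serine and one-carbon enzymes only SHMT2 has a second probe set above the floor, with -0.22 for Epo against GM-CSF, 0.17 for SF against Epo, 0.31 for mutant SCL under Epo and -0.14 for SF against Epo in mutant cells. Its dimmest probe set, also above the floor, gave 1.05 for Epo against GM-CSF and 0.64 for SF against GM-CSF. The cause of these shifts was not tested. Signals near the floor limit what PSAT1 and CEBPG can show.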
